A study of Homo sapiens with 8 samples.

Results

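The cytosolic chaperonin TRiC, also called CCT, was followed through the 8 genes for its subunits: TCP1, CCT2, CCT3, CCT4, CCT5, CCT6A, CCT7 and CCT8. These are the 8 rows of the deposited expression table, out of 22504 genes, whose gene name equals one of those symbols. All 8 passed the filter on low values (at least 1 FPKM in at least 2 libraries), which left 12996 genes to test. FPKM counts sequenced fragments relative to transcript length and to all mapped fragments, so levels can be compared between genes per length.

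TRiC is a barrel of stacked rings in which each subunit takes a fixed place, and it folds newly made proteins inside a closed chamber while consuming ATP. Actins and tubulins are its best known clients and do not reach their native state without it. Prefoldin, a hexameric co-chaperone, hands unfolded actin and tubulin chains to TRiC, and phosducin-like proteins bind the chaperonin and tune its folding cycle.

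The RNA came from U2OS cells, an established human osteosarcoma line, and poly(A) RNA was sequenced on an Illumina HiSeq 2500. One set of cells overexpressed the actin mutant G13R, known as an actin that does not polymerise, and the control cells expressed GFP. Each kind of cell was grown normally or stimulated with serum, which gives 4 groups of 2 libraries (GFP normal, GFP serum, G13R normal and G13R serum). The labels do not give the actin gene that carries the mutation, its promoter, whether a line was 1 clone, or how long serum was applied, and they do not say whether replicate libraries came from separate cultures, so a p-value here measures only the spread between libraries.

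Each library had 12065 to 12568 genes at 1 FPKM or more, and replicate libraries correlated at r = 0.980 to 0.989 across genes. GFP serum replicate 2 stood apart from the rest. It scored 44.7 on the first principal component (53.9% of variance), against 26.0 for GFP serum replicate 1 and 11.8 and 14.5 for the G13R serum libraries. In the GFP serum group 186 genes differed over 2-fold between replicates, against 87 to 102 in the other groups. Of 9 osteoblast-lineage markers 6 reached 1 FPKM in any library, with a summed level of 470 to 848 FPKM. Most of that sum was SPARC (384 to 765 FPKM), and COL1A2, SP7 and IBSP stayed under 1 FPKM. Of 5 markers per other type, 4 epithelial, 1 leukocyte, 0 endothelial and 4 neural ones reached 1 FPKM. Their summed levels were lower: epithelial 3.42 to 8.11 FPKM, leukocyte 1.95 to 5.98, endothelial 0.575 to 1.09 and neural 11.4 to 16.8. The neural marker RBFOX3 read 7.70 to 14.1 FPKM.

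All 8 subunits were among the abundant transcripts of these cells: their means over the 8 libraries lay above those of 96.7 to 98.7% of tested genes. The order by mean level was CCT5 (381 FPKM), CCT8 (364 FPKM), CCT7 (307 FPKM), TCP1 (285 FPKM), CCT3 (243 FPKM), CCT6A (233 FPKM), CCT4 (198 FPKM) and CCT2 (171 FPKM). CCT2 was the lowest subunit in 8 of 8 libraries. Some neighbours in this order were not separated: CCT3 exceeded CCT6A in 4 libraries and lay below it in the other 4, and CCT5 exceeded CCT8 in 5 of 8. The steps from CCT8 to CCT7, from CCT6A to CCT4 and from CCT4 to CCT2 held in 8 of 8 libraries, and those from CCT7 to TCP1 and from TCP1 to CCT3 in 7 of 8.

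Transcripts of all 8 chaperonin subunits were lower after serum in GFP cells. All 8 subunits were called lower (limma, Benjamini-Hochberg adjusted p under 0.05 over all tested genes), where 15.7% of all tested genes were called lower and 38.9% of the 848 genes with a mean of at least 100 FPKM. The median log2 fold change of the 8 was -0.51, against 0.01 over all tested genes, with a range from -0.74 to -0.48. For 8 of 8 both serum libraries lay below both normal-growth libraries, where 33% of all tested genes did so. Summed over the subunits, TRiC fell from 2686 ± 1.5 FPKM to 1803 ± 147 FPKM (SD, n = 2), and from 0.488% to 0.344% of all FPKM. In bulk RNA, fewer cells of a type and less RNA per cell cannot be told apart.

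**Figure D1:**
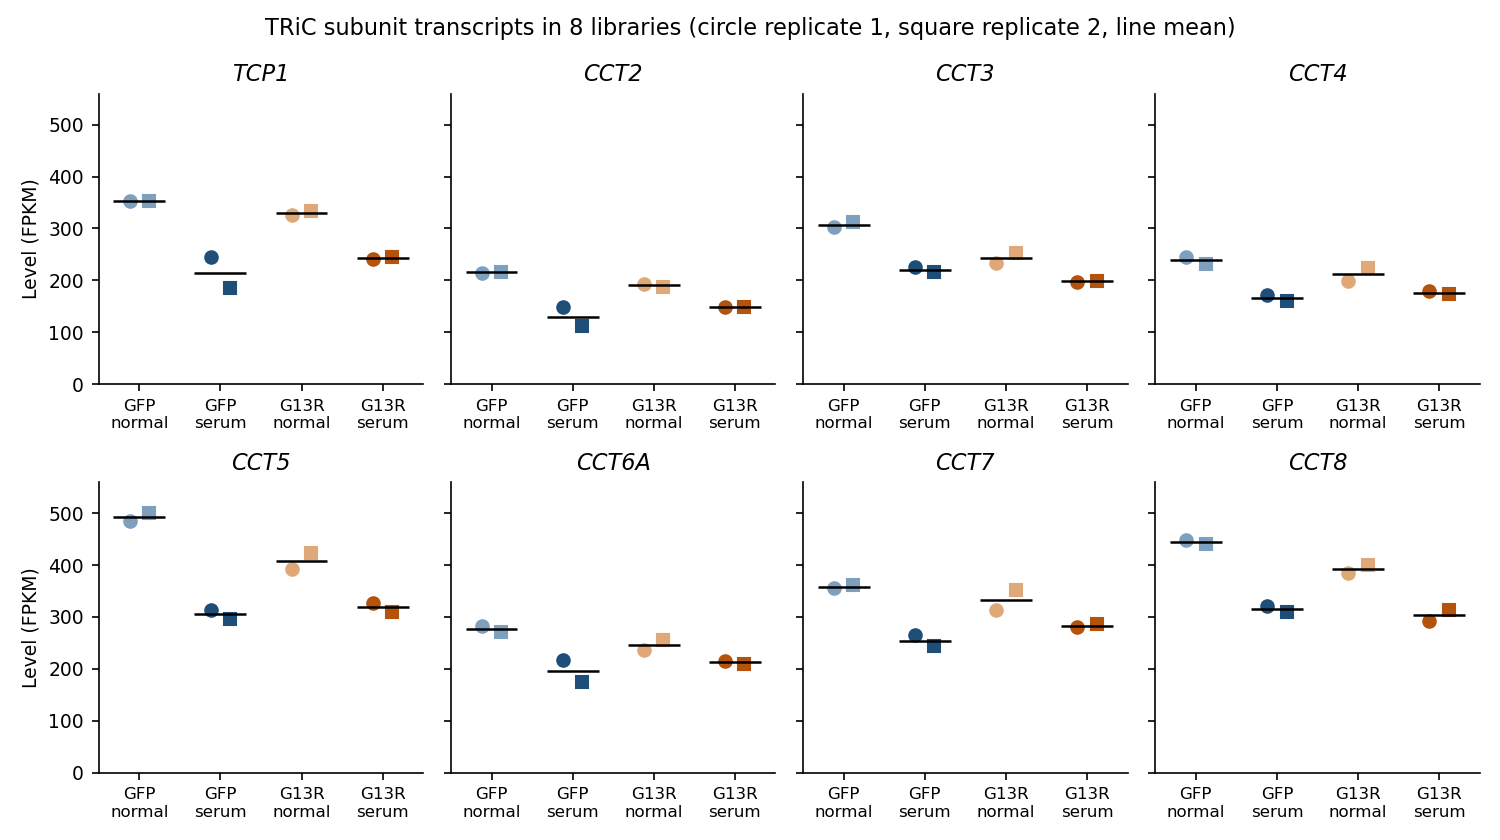
FPKM of each TRiC subunit in each of the 8 libraries; points are libraries, colours are the 4 groups and horizontal bars are group means of 2 libraries. Both serum points lie below both normal-growth points of the same cells for all 8 subunits, and TCP1, CCT2 and CCT6A show the widest gap between the GFP serum libraries.

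Actin contacts the ring through CCT4 on one side and through CCT2 or CCT5 on the other, and these 3 subunits are described first. CCT4, the delta subunit (hg19 chromosome 2, 62095224 to 62115939), read 245 and 231 FPKM in GFP normal libraries, 172 and 161 after serum, 199.8 and 223 in G13R normal and 179 and 174 in G13R serum. Within each kind of cell the serum libraries were the low ones, with no overlap. Its log2 change with serum in GFP cells was -0.52 ± 0.08 (SE, adjusted p = 0.00151). CCT2, the beta subunit (chromosome 12, 69979114 to 69995350), read 215 and 216 FPKM in GFP normal, 148 and 111 in GFP serum, 194 and 187 in G13R normal and 148 and 149 in G13R serum. The gap of GFP serum replicate 2 to replicate 1 was -24.8%, and both still lay below every normal-growth library. The change was -0.74 ± 0.11 (adjusted p = 0.00134), and -0.54 without GFP serum replicate 2 (adjusted p = 0.00171).

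CCT5, the epsilon subunit (chromosome 5, 10250033 to 10266524), in which mutations cause a hereditary sensory neuropathy, was the most abundant on average. Its values were 486 and 501 FPKM in GFP normal, 314 and 296 in GFP serum, 393 and 423 in G13R normal and 327 and 310.3 in G13R serum. The GFP normal libraries were the highest and the 4 serum libraries the lowest, whichever the cells. CCT5 had the smallest adjusted p of the 8 subunits in GFP cells, with a log2 change of -0.69 ± 0.07 (adjusted p = 2.00e-04).

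The alpha subunit TCP1 (chromosome 6, 160199530 to 160210781), after which the complex is named, read 352 and 352 FPKM in GFP normal, 245 and 186 in GFP serum, 326 and 333 in G13R normal and 241 and 246 in G13R serum. As for CCT2, GFP serum replicate 2 was far below its partner, with a gap of -24.2%. The log2 change with serum in GFP cells was -0.72 ± 0.11 (adjusted p = 0.00128), and -0.52 without that library (adjusted p = 0.00138). The zeta subunit CCT6A (chromosome 7, 56119323 to 56131682) read 282 and 272 FPKM in GFP normal, 217 and 175 in GFP serum, 237 and 256 in G13R normal and 215 and 210.2 in G13R serum. Its replicate gap in GFP serum was -19.0%, and the change was -0.50 ± 0.10 (adjusted p = 0.00429). This was the only one of the 8 calls that any alternative ended: with no filter on low values its adjusted p was 0.0571.

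The gamma, eta and theta subunits had close replicates in the GFP serum group, with gaps of -8.06 to -3.56%. Levels of CCT3 (chromosome 1, 156278759 to 156337664) were 303 and 312 FPKM in GFP normal, 225 and 217 in GFP serum, 234 and 253 in G13R normal and 197 and 199 in G13R serum. CCT3 alone had both G13R serum libraries below both GFP serum libraries. Levels of CCT7 (chromosome 2, 73460548 to 73480149) were 357 and 361 FPKM in GFP normal, 265 and 244 in GFP serum, 313 and 352 in G13R normal and 280.1 and 287 in G13R serum. Levels of CCT8 (chromosome 21, 30428126 to 30446118) were 448 and 439.8 FPKM in GFP normal, 321 and 309 in GFP serum, 386 and 399.5 in G13R normal and 293 and 313 in G13R serum. All 3 were lower in every serum library than in every normal-growth library of the same cells. In GFP cells the log2 changes were -0.48 ± 0.07 for CCT3 (adjusted p = 0.00122), -0.49 ± 0.08 for CCT7 (adjusted p = 0.00167) and -0.49 ± 0.07 for CCT8 (adjusted p = 8.12e-04).

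Of the 8 subunits 5 start within 1000 bases of a gene transcribed away on the opposite strand, where 12.9% of 19384 genes with a known strand do. The partners are MRPL18, a mitochondrial ribosomal protein gene (TCP1, 63 bases between the starts), PSPH, phosphoserine phosphatase (CCT6A, 26 bases), FAM173B (CCT5, 24 bases), PRADC1 (CCT7, 182 bases) and COMMD1 (CCT4, where the 2 genes overlap). With serum in GFP cells MRPL18 fell with TCP1 (-0.43, adjusted p = 0.00305) and PSPH with CCT6A (-0.45, adjusted p = 0.0249), the latter call lost without GFP normal replicate 2 (adjusted p = 0.161), GFP serum replicate 1 (0.0701) or replicate 2 (0.0529). PRADC1 was at -0.01 (adjusted p = 0.951), FAM173B at -0.31 (adjusted p = 0.148) and COMMD1 at -0.31 (adjusted p = 0.191). With serum in G13R cells none of these 5 partners was called. There MRPL18 was at -0.23 (adjusted p = 0.0877), PSPH at 0.01 (0.960) and FAM173B at -0.21 (0.390). PRADC1 was at 0.03 (adjusted p = 0.923) and COMMD1 at 0.06 (0.843).

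The DNA between the starts is shown for 2 pairs. With serum in GFP cells both genes of the first pair were called lower, and only the subunit of the second. With serum in G13R cells TCP1 was called lower and MRPL18 was not, and neither CCT7 nor PRADC1 was called. A link between these sequences and the responses was not tested. Sequences are from RefSeq promoters on GRCh38.p14, 5′ to 3′ along the strand of the subunit, for the stretch outside annotated exons. The TCP1 stretch is chr6:159789750-159789811 on the minus strand and the CCT7 stretch chr2:73234058-73234235 on the plus strand. Capitals mark a CCAAT box read on the opposite strand, and the CCT7 stretch holds none of the motifs searched.
TCP1 and MRPL18: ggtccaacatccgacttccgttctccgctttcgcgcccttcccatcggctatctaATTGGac
CCT7 and PRADC1: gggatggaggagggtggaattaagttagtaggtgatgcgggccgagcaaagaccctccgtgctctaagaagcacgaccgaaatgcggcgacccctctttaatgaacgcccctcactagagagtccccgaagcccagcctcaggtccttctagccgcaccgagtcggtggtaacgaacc

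RefSeq promoter windows were matched for 7 of the 8 subunits, not for CCT6A. In the 250 bases before the start, on either strand, CCAAT was found for CCT2, CCT3, CCT8 and TCP1 (37.0% of genes with a window hold it) and GGGCGG for the same 4 (46.2%). The heat shock element core GAANNTTC was found for CCT2 and TCP1 (7.05%) and TTCNNGAA for none (8.12%). CACGTG (7.73%), TATAAA (13%) and the CArG box of serum response factor (1.44%) were found for none of the 7.

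In G13R cells the drop with serum had the same sign in 8 of 8 subunits and passed the test in 4, where 4.62% of all tested genes and 16.5% of those with a mean of at least 100 FPKM were called lower. The subunits called were CCT8 (-0.37 ± 0.07, adjusted p = 0.00868), CCT5 (-0.35 ± 0.07, adjusted p = 0.0134), CCT3 (-0.29 ± 0.07, adjusted p = 0.0269) and TCP1 (-0.44 ± 0.11, adjusted p = 0.0298). Those not called were CCT4 (-0.26 ± 0.08, adjusted p = 0.0650), CCT2 (-0.36 ± 0.11, adjusted p = 0.0669), CCT7 (-0.22 ± 0.08, adjusted p = 0.0935) and CCT6A (-0.21 ± 0.10, adjusted p = 0.187). The median was -0.32, against 0.04 over all tested genes. Both G13R serum libraries lay below both G13R normal libraries for 8 of 8 subunits, where 26.4% of all tested genes did so. Summed TRiC fell from 2354 ± 103 FPKM to 1885 ± 5.83 FPKM (SD, n = 2).

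The number of subunits called in G13R cells depended on single libraries. It was 2 without G13R normal replicate 1, 0 without G13R normal replicate 2, 0 without G13R serum replicate 1 and 1 without G13R serum replicate 2, and it was 6 without either of the GFP serum libraries, which enter only through the shared estimate of spread. The summed level of the osteoblast-lineage markers, most of it SPARC, moved the other way from TRiC, from 601 and 689 FPKM to between 693 and 848 in GFP cells and from between 470 and 512 FPKM to between 546 and 592 in G13R cells. The markers did not all do so: in G13R cells COL1A1 went from 34.1 and 37.1 to 30.4 and 29.5 FPKM and SPP1 from 41.4 and 41.3 to 32.3 and 35.1 FPKM. Their part in the TRiC result was not tested.

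The drop was smaller in G13R cells than in GFP cells for each subunit, but the difference between the responses did not pass the test for any. The G13R minus GFP difference in log2 response was positive for 8 of 8, from 0.12 for CCT8 to 0.38 for CCT2, with a median of 0.28 against 0.04 over all tested genes. CCT5 had the smallest adjusted p, at a difference of 0.34 ± 0.10 (adjusted p = 0.291), and 4 of 8 subunits had an unadjusted p under 0.05 in limma. None of the 12996 tested genes was called (0%), although 1533 (11.8%) had an unadjusted p under 0.05. Without GFP serum replicate 1, 2 subunits were called (CCT2 at 0.59 and TCP1 at 0.48), and without GFP serum replicate 2 none was and the median was 0.17.

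**Figure D2:**
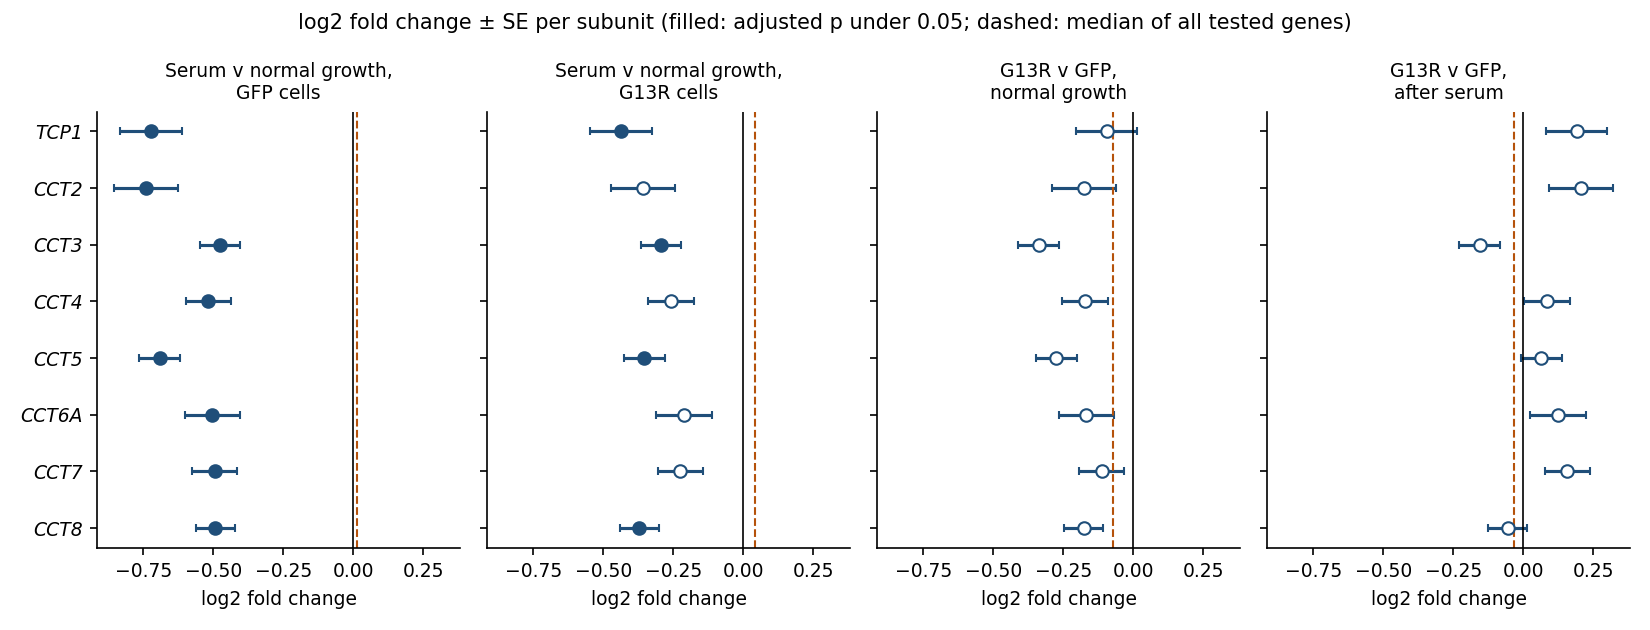
Log2 fold change of each subunit on the log2(FPKM + 1) scale, with bars of 1 SE, in the 2 serum comparisons and the 2 comparisons of G13R with GFP cells; filled points passed the adjusted p of 0.05. All 8 points are filled for serum in GFP cells, 4 for serum in G13R cells and none for G13R against GFP cells.

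Between G13R and GFP cells no subunit was called in either growth condition. In normal growth all 8 log2 differences were below 0, from -0.34 ± 0.07 for CCT3 (adjusted p = 0.117) and -0.27 ± 0.07 for CCT5 (adjusted p = 0.170) to -0.10 ± 0.11 for TCP1 (adjusted p = 0.731). Their median was -0.17, against -0.07 over all tested genes. The G13R libraries lay below the GFP libraries without overlap for 8 of 8 subunits, where 34.3% of all tested genes did so. In limma 3 of the 8 had an unadjusted p under 0.05, as did 1968 of all tested genes (15.1%), and 6 of all tested genes (0.0462%) were called at the adjusted p. With quantile normalization the median of the 8 was -0.03, and CCT7 (0.05) and TCP1 (0.08) lay above 0. The GFP normal libraries are the base of both this comparison and the serum comparison in GFP cells.

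After serum the subunits of G13R and GFP cells lay close together. The log2 differences were -0.16 ± 0.07 for CCT3 (adjusted p = 0.251) and -0.06 ± 0.07 for CCT8 (adjusted p = 0.691), and between 0.06 for CCT5 and 0.21 for CCT2 in the other 6, with a median of 0.10. None was called and none had an unadjusted p under 0.05 in limma, where 0.823% of all tested genes were called. The libraries overlapped for 5 subunits, while both G13R libraries were higher for CCT4 and CCT7 (22.6% of all tested genes) and lower for CCT3 (29.4%). Without GFP serum replicate 1, TCP1 (0.39, adjusted p = 0.00945) and CCT2 (0.41, adjusted p = 0.0101) were called higher in G13R cells, and without GFP serum replicate 2 they were at -0.0087 and 0.0026.

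Although the complex holds its subunits in equal numbers, their transcripts were not equal. CCT5 made up 17.4% of summed TRiC FPKM on average (16.4 to 18.6% over libraries) and CCT2 7.79% (6.56 to 8.51%). The ratio of the highest to the lowest subunit was 2.02 to 2.78 within a library. Over libraries CCT4 had the narrowest range of the 8, 8.62 to 9.51%, and CCT8 held 15.6 to 18.2%. GFP serum replicate 2 had the lowest shares of TCP1 (10.9%) and CCT2 (6.56%) and the highest of CCT3 (12.8%) and CCT8 (18.2%). CCT3 had a lower share in each G13R library (10.3 to 10.5%) than in each GFP library (11.3 to 12.8%).

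**Figure D3:**
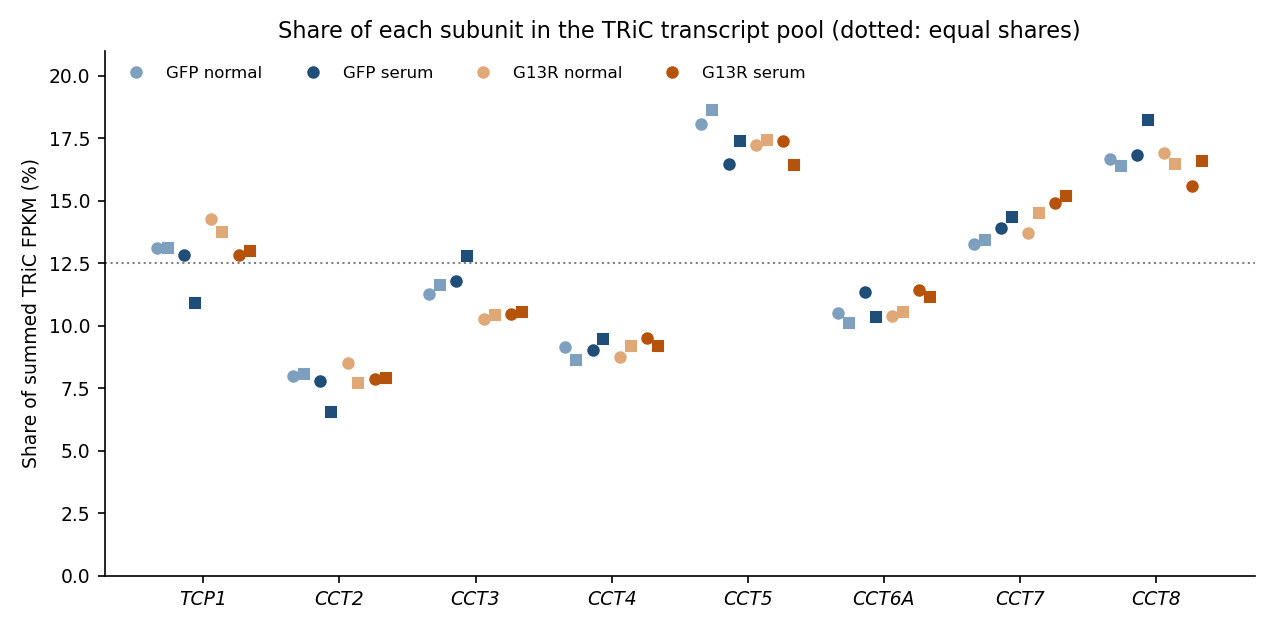
Share of each subunit in the summed FPKM of the 8 subunits, in percent, for each library. The dotted line marks equal shares. CCT5, CCT7 and CCT8 lie above the line and CCT2, CCT4 and CCT6A below it in all 8 libraries.

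Actin transcripts were higher relative to those of the chaperonin in the G13R cells. ACTB, which encodes cytoplasmic beta-actin, read 2602 and 2779 FPKM in GFP normal, 2543 and 2615 in GFP serum, 11245 and 10010 in G13R normal and 8676 and 7949 in G13R serum. The table does not separate an introduced actin transcript from the cell's own. All 4 G13R libraries were above all 4 GFP libraries, with a log2 difference of 1.98 between the normal groups (adjusted p = 2.80e-06) and of 1.69 between the serum groups (adjusted p = 1.36e-05). Both calls were lost with no filter on low values (adjusted p = 0.140 and 0.196), and with quantile normalization the differences were 1.32 and 1.42, both called. ACTG1, cytoplasmic gamma-actin, differed by -0.21 and 0.11 in the same comparisons and was not called, while with quantile normalization the serum groups differed by 0.25 (adjusted p = 0.0349). Summed ACTB and ACTG1 per mean subunit was 14.5 ± 0.871 in GFP normal, 19.9 ± 2.54 in GFP serum, 42.7 ± 4.61 in G13R normal and 43.9 ± 2.42 in G13R serum (SD, n = 2). The mean subunit was 336, 225, 294 and 236 FPKM in the same groups, and the summed actin was 4882, 4455, 12519 and 10334 FPKM.

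**Figure D4:**
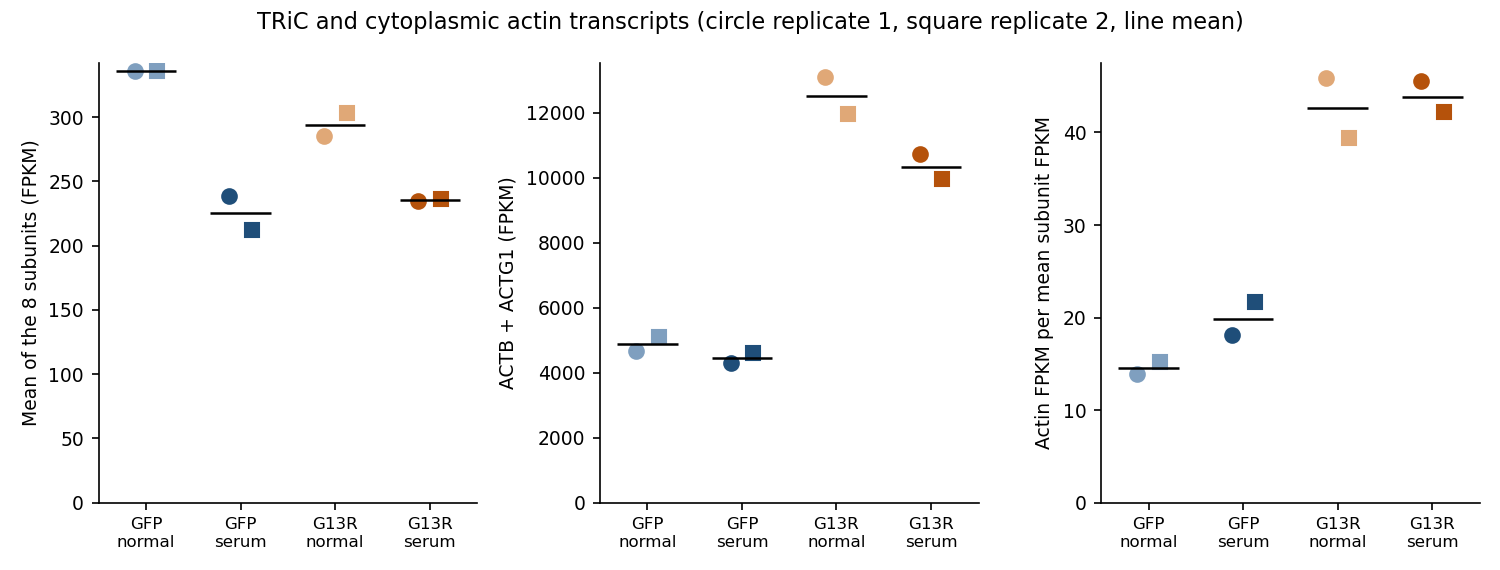
Mean FPKM of the 8 TRiC subunits, summed ACTB and ACTG1 FPKM, and that actin sum divided by the subunit mean. Points are libraries and horizontal lines are group means. The actin ratio is 39.4 to 45.9 in the 4 G13R libraries and 13.9 to 21.7 in the 4 GFP libraries.

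With serum, actin per mean subunit went in GFP libraries from 13.9 and 15.2 to 18.1 and 21.7, while actin itself went from 4882 ± 290 to 4455 ± 205 FPKM. In GFP cells neither ACTB (-0.06, adjusted p = 0.593) nor ACTG1 (-0.22, adjusted p = 0.0579) passed the test with serum. ACTG1 was called lower in 5 alternatives, among them without GFP serum replicate 2 (-0.31, adjusted p = 0.0230) and with the replicate number as a block (adjusted p = 0.0132), and ACTB with quantile normalization (-0.10, adjusted p = 0.0399). In G13R cells ACTB fell by 0.35 on the log2 scale (adjusted p = 0.0184) and the ratio was 39.4 to 45.9 before and 42.2 to 45.6 after. That ACTB call was lost without G13R normal replicate 1 (adjusted p = 0.128), without G13R serum replicate 1 (0.0675) and without G13R serum replicate 2 (0.161). It was also lost with no filter (0.541), without the intensity trend (0.0992) and with quantile normalization, which gives ACTB, the top gene of each G13R library, the same value in all 4.

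Most transcripts of prefoldin, the complex that delivers actin to TRiC, were also lower after serum in GFP cells. Of its 6 genes 5 were called lower and none higher, with a median of -0.43. The share of all tested genes called lower with serum was 15.7% in GFP cells and 4.62% in G13R cells. PFDN2 read 249.6 and 245 FPKM in GFP normal, 133 and 112 in GFP serum, 209.6 and 236 in G13R normal and 176 and 177 in G13R serum. It had the largest change of the 6, -1.01 (adjusted p = 1.09e-04) in GFP cells against -0.33 (adjusted p = 0.0475) in G13R cells, and among serum libraries it was 0.53 higher in G13R cells (adjusted p = 0.0455). PFDN1 (-0.43, adjusted p = 0.0102), PFDN4 (-0.44, adjusted p = 0.00737), VBP1 (-0.47, adjusted p = 0.0210) and PFDN6 (-0.25, adjusted p = 0.0483) were the others called in GFP cells. PFDN5 was at 0.03 (adjusted p = 0.888), from 223 and 234 to 199.9 and 270.5 FPKM. In G13R cells 2 of 6 were called lower, PFDN2 and PFDN4 (-0.34, adjusted p = 0.0418). The GFP count was 3 without GFP serum replicate 2 and 2 to 5 over all single libraries left out, and the G13R count 0 to 2. The call of PFDN2 between G13R and GFP cells after serum was lost without any 1 of 7 libraries, all but GFP serum replicate 1 (adjusted p up to 0.349).

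Among the phosducin-like cofactors no change was called. None of 3 tested genes was called with serum in GFP cells or in G13R cells (limma, 0 and 1 at an unadjusted p under 0.05). Of all tested genes 42.4% and 29.3% had an unadjusted p under 0.05 in these comparisons. Called higher and lower were 14.9% and 15.7% of all tested genes in GFP cells, and 8.26% and 4.62% in G13R cells. With only 3 genes, these counts cannot set the cofactors apart from other genes. In GFP cells PDCL3, which assists folding of actin and tubulin, was at -0.28, TXNDC9 at -0.15 and PDCL at 0.22, and PDCL2 was at most 0.115 FPKM in any library. Of 5 other chaperonin-like genes, CCT6B, a testis-enriched relative of CCT6A, was at most 0.302 FPKM in any library.

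Clients of TRiC were mixed. Of 13 tested tubulin genes 1 was called higher and 3 lower with serum in GFP cells, with a median of -0.01. There 14.9% of all tested genes were called higher and 15.7% lower. TUBA1A rose by 1.68 (adjusted p = 6.34e-05) and in G13R cells by 1.27 (adjusted p = 7.21e-04), while TUBA1C (-0.49) and TUBA4A (-0.44) fell in GFP cells. With single libraries left out 2 to 5 tubulin genes were called in GFP cells. Tubulin per mean subunit was 10.7 ± 0.816 and 14.1 ± 2.21 in GFP normal and serum, and 9.40 ± 0.197 and 11.3 ± 0.247 in the G13R groups. Among 14 WD40 proteins and other substrates 5 were called lower and none higher in GFP cells. They included PLK1, a mitotic kinase (-0.68), RPTOR, the mTORC1 scaffold (-0.57), and CCNE1, cyclin E1 (-0.55). With serum in G13R cells 4.62% of all tested genes were called lower. In G13R cells 3 were called lower, RPTOR (-0.52), PLK1 (-0.36) and PPP2R2A (-0.35), and the count was 0 to 4 with single libraries left out. Among the 6 tubulin cofactors ARL2, a small GTPase, was called higher in GFP cells (0.53) and in G13R cells (0.46, where 8.26% of all tested genes were called higher), and TBCA lower in GFP cells (-0.30). With single libraries left out 0 to 2 cofactors were called in GFP cells, and the ARL2 call in G13R cells was lost without any 1 of the 4 G13R libraries (adjusted p = 0.107 to 0.155). After serum TUBA1A (-0.74) and TUBB (-0.51) were lower in G13R than in GFP cells, and both calls were lost without any 1 of 7 libraries (all but GFP serum replicate 1).

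Genes of other folding systems were also lower after serum. Of 15 cytosolic HSP70 and HSP90 genes 11 were called lower and none higher with serum in GFP cells, with a median of -0.51. Over all tested genes 15.7% were called lower with serum in GFP cells and 4.62% in G13R cells. Among genes with a mean of at least 100 FPKM these shares were 38.9% and 16.5%. HSPH1, a nucleotide exchange factor, was at -0.75, and the HSP90 genes HSP90AA1 and HSP90AB1 were both at -0.70. In G13R cells 5 were called lower, among them HSP90AB1 (-0.52), HSPA4 (-0.48) and HSPH1 (-0.48), and that count was 1 to 8 with single libraries left out. The mitochondrial chaperonin pair HSPD1 (-1.02 and -0.67 in GFP and G13R cells) and HSPE1 (-0.91 and -0.52) was called lower in both. HSPA1A and HSPA1B are near-identical HSP70 genes whose values cannot be fully separated. They were called higher in G13R than in GFP cells in normal growth (1.51 and 1.55) and after serum (1.83 and 1.86). Of all tested genes only 6 (0.0462%) were called in normal growth, none of them a TRiC or prefoldin gene, and 0.823% after serum. The calls of HSPA1A and HSPA1B were lost with no filter on low values (adjusted p = 0.103 in normal growth and 0.0801 after serum).

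**Figure D5:**
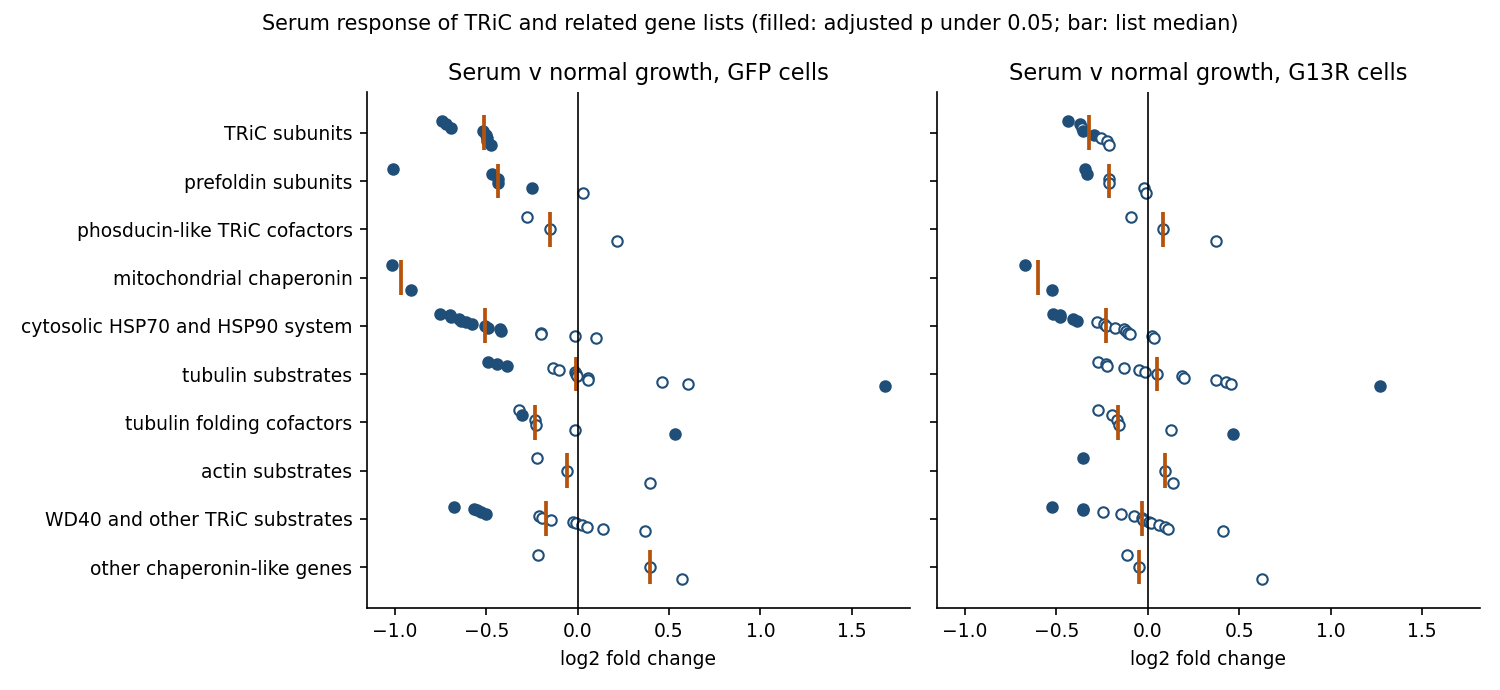
Log2 fold change with serum of every tested gene in each list, in GFP cells and in G13R cells; filled points passed the adjusted p of 0.05 and short bars are medians. The TRiC subunits lie between -0.74 and -0.48 in GFP cells. This range is narrower than those of the HSP70 and HSP90 system, the tubulins and the other substrates. Those lists are longer (15, 13 and 14 tested genes against 8), and a range widens with the number of genes. The 2 genes of the mitochondrial chaperonin lie closer together, at -1.02 and -0.91.

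The profile of the mean subunit over the 8 libraries was matched most closely by 6 genes among 7222 with a mean of at least 10 FPKM. The measure was the root mean square difference of centred log2 values, and it is a description with no test. These were the RNA-binding protein SFPQ (0.0362), the importin IPO5 (0.0381), the transcription elongation factor subunit TCEB3 (0.0382), the mitochondrial import subunit TOMM6 (0.0385), the RNA helicase DDX47 (0.0392) and the nucleoside diphosphate kinase NME1 (0.0397). The subunits themselves lay at 0.0476 for CCT4 to 0.109 for CCT3. Of the 7222 ranked genes 0.166% lay closer to the mean profile than CCT4. For CCT2, TCP1 and CCT3 these shares were 4.04%, 4.79% and 6.36%, so the profile was not particular to the subunits. With quantile normalization, or without GFP serum replicate 2, 1 of the 6 nearest genes was shared.

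Some subunit values may include reads of other transcripts. The 3′ end of TCP1 shares 615 bases with ACAT2, a thiolase gene on the opposite strand, which rose with serum in GFP cells (0.95, adjusted p = 9.87e-04) from 18.0 and 19.0 to 32.1 and 41.7 FPKM while TCP1 fell. Of the 50-base windows of the longest transcript, 49.8% for CCT5, 22.1% for TCP1, 10.5% for CCT4, 8.59% for CCT8 and 6.67% for CCT6A also occur in another annotated gene, mostly on the opposite strand for CCT5 and TCP1. CCT2, CCT3 and CCT7 had 0% such windows. The part of shared reads in the subunit values was not tested. The CCT6A pseudogenes CCT6P1 and CCT6P3 reached 2.12 to 5.81 FPKM.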

How the data were processed

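The deposited table holds 1 FPKM value per gene and library. The submitters' processing notes name TopHat2 2.0.13, Cufflinks 2.2.1 and the builds hg19 and BDGP5, and the sources used here do not give the annotation. FPKM keeps no read counts, and low values did not recover them (8.78 to 17.3% of gene pairs at the commonest ratio), so depth is unknown and no counting intervals were computed. Cufflinks splits reads between transcripts, which makes near-identical, overlapping or antisense genes uncertain. Library columns were matched on their names and 0 were left over. The labels do not spell out the C and S of these names: S was taken for serum and C for normal growth, the remaining condition, and each serum comparison rests on that reading. Gene starts were found to count from 0 (the span of 77.4% of 159 short olfactory receptor genes was then a multiple of 3), and 1 was added.

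limma 3.58.1 (R 4.3.3) tested log2(FPKM + 1), which understates changes of low genes. The model had an intensity trend and 1 mean per group over 8 libraries (4 residual degrees of freedom), and p-values were adjusted by Benjamini-Hochberg over the 12996 genes kept. The script was tested on simulated data. Compared were serum and normal growth within each kind of cell, G13R with GFP in each condition, and the difference between the serum responses. Strands, shared windows and exons came from GENCODE v29 on GRCh38, never mixed with hg19 positions.

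The members and the 10 gene lists (80 genes, 73 tested) were chosen with earlier results of these data known. Besides the subunits, ACTB, ACTG1, prefoldin and phosducin-like genes, the text names up to 3 called genes of largest change per list and contrast, and the 6 genes nearest in profile. CCT6B, the neighbouring and overlapping genes and the pseudogenes were chosen after their values were seen. Alternatives changed the pseudocount (0.1), the filter (none, or 5 FPKM), the scaling (median-ratio or quantile), the trend (none), the block (replicate number) or the libraries fitted (only those compared, or each left out in turn). Those for counts of other lists and for named genes outside TRiC were added after seeing the data.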

Additional observations from a re-analysis of the deposited data

How the results depend on the processing

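The 8 subunits were called lower with serum in GFP cells in each alternative except with no filter (7, CCT6A lost). Their median was -0.35 with quantile normalization and -0.61 to -0.47 with single libraries left out, and all genes called (3985) numbered 2282 with no filter and 2155 to 4263. With serum in G13R cells 4 subunits were called, 1 with no filter, 2 with quantile normalization, 0 without the intensity trend, 6 with median-ratio scaling or only the compared libraries, and 0 to 6 with single libraries left out. The median was -0.23 with quantile normalization, and all genes called (1675, of which 35.9% lower) numbered 578 with no filter, 1071 without the trend and 413 to 2366, with 47.3% lower under median-ratio scaling.

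For G13R against GFP cells in normal growth, no subunit was called in any of these alternatives. The median was -0.0257 with quantile normalization, where CCT7 (0.0504), TCP1 (0.0841) and ACTG1 (0.0093) changed sign. All genes called (6) numbered 11 with no filter, 14 at 5 FPKM, 12 with quantile normalization, 49 with only the compared libraries and 4 to 109 with single libraries left out. After serum, 0 to 2 subunits were called and the median was -0.0031 to 0.18 with single libraries left out. CCT8 was at 0.0522 with quantile normalization, and with single libraries left out TCP1 lay between -0.0087 and 0.39 and CCT6A between -0.0268 and 0.28. All genes called (107) numbered 4 with no filter, 263 at 5 FPKM, 164 with quantile normalization (49.4% lower against 59.8%), 6 without the trend, 6 with only the compared libraries and 5 to 1620 with single libraries left out. For the difference of responses, 0 to 2 subunits were called, the median was 0.17 to 0.36, or 0.18 with quantile normalization, and the genes called (0) numbered 1 at a pseudocount of 0.1, 10 with no filter, 2 with quantile normalization and 0 to 486. The cause of these shifts was not tested.

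In G13R cells with serum PFDN5 was at 0.0985 and PFDN6 at 0.00052 with quantile normalization, and at -0.0957 to 0.0774 and -0.0508 to 0.0076 with single libraries left out. In GFP cells PFDN5 was at -0.190 to 0.245 and PRADC1 at -0.0915 to 0.0646 with single libraries left out. Of 55 called values of named genes outside TRiC, 30 were lost with no filter, 20 without the trend, 11 with quantile normalization, 8 with only the compared libraries, 3 at a pseudocount of 0.1 and 1 to 19 with single libraries left out. Replicate deviations correlated weakly between groups (0.0169 to 0.121, all above 0). Whether equal replicate numbers mark paired libraries is not given by the labels and was not tested. With the replicate block the counts of TRiC subunits were 8, 4, 0, 0 and 0, as without it. All genes called were then 83 between the normal groups and 403 between the serum groups, against 6 and 107 without the block. FPKM hides the depth, so the precision of low genes is not known.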
